A study of Mus musculus with 24 samples.

Results

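The caveolae genes are the 6 genes *Cav1*, *Cav2*, *Cavin1*, *Cavin2*, *Cavin3* and *Ehd2*, chosen by gene symbol in the deposited tables of epididymal white adipose tissue (eWAT), and each symbol matched 1 of the 16730 genes in those tables. All 6 passed the filter on low values, which kept 15020 genes that reached 1 CPM (counts scaled to a common library total) in no fewer than 3 libraries. The QuantSeq 3′ method, which reads the end of each transcript, was used on eWAT of 24 male mice, with 1 library per mouse and 6 mice in each of 4 groups. The mice carried *Lama4* with exon 3 between loxP sites, either without Cre (*Lama4* fl/fl, littermate controls) or with Cre under the adiponectin promoter, which is active in adipocytes (*Lama4* AKO). Each genotype was fed chow or a high-fat diet (HFD) of 45% fat for 20 weeks, up to an age of 24 to 26 weeks. The study's figure legends give chow from weaning to 24 weeks of age and HFD from 6 to 26 weeks. Age and feeding schedule may thus go with diet, and their effects cannot be told apart from it. Other cells of the tissue keep *Lama4* in both genotypes.

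Caveolae are small flask-shaped pits of the plasma membrane, and they are abundant in adipocytes, endothelial cells and smooth muscle cells. Caveolin-1 (*Cav1*) inserts into the inner leaflet of the membrane as oligomers, and caveolin-2 (*Cav2*) joins it in hetero-oligomers. The cavins form a coat around the pit: cavin-1 (*Cavin1*) is required for caveolae to form, cavin-2 (*Cavin2*) takes part in shaping the membrane, and cavin-3 (*Cavin3*) is a further coat subunit. The ATPase EHD2 (*Ehd2*) sits at the neck and holds caveolae at the surface. In adipocytes, caveolae are known for a part in fatty acid uptake, in insulin signalling and in buffering membrane tension as the cell enlarges.

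On the GRCm38 mouse reference with the GENCODE M21 annotation, *Cav2* (ENSMUSG00000000058, forward strand, chr6:17281185-17289115) and *Cav1* (ENSMUSG00000007655, forward strand, chr6:17306335-17341452) are neighbours, with 17219 bases and 0 annotated genes wholly between them. *Cavin1* (ENSMUSG00000004044) lies on the reverse strand at chr11:100956733-100970887, and *Cavin2* (ENSMUSG00000045954) on the forward strand at chr1:51289126-51302960. *Cavin3* (ENSMUSG00000037060, chr7:105480083-105482300) and *Ehd2* (ENSMUSG00000074364, chr7:15946958-15967567) are both on the reverse strand of chromosome 7. The antisense gene Gm15581 overlaps *Cav1* and *Cav2*, 9330175M20Rik overlaps *Cavin2* and Gm45667 overlaps *Cavin3*. None of these opposite-strand genes has a row in the count table, and whether reads were counted by strand is not given in the sources used here.

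The 250 bases before the first listed RefSeq start are shown for the members whose window holds no annotated exon (RefSeq, GRCm38.p6, read 5′ to 3′ on the forward strand). *Cav1* has another listed start with its window at chr6:17307390-17307639, and *Cavin1* has another as well. Those windows are neither printed nor counted below. Capitals mark matches, on either strand, to 5 short motifs, which are spelled out after the sequences.
Cav1 (chr6:17306085-17306334): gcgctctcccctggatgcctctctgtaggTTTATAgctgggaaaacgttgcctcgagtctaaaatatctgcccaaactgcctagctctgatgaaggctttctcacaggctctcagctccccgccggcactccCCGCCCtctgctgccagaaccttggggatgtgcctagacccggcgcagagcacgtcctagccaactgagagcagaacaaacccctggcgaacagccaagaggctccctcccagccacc
Cav2 (chr6:17280935-17281184): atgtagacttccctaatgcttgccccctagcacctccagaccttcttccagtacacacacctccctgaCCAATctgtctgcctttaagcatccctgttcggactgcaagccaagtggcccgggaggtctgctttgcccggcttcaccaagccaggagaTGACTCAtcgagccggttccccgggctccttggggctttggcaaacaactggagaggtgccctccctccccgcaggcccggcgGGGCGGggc
Cavin2 (chr1:51288876-51289125): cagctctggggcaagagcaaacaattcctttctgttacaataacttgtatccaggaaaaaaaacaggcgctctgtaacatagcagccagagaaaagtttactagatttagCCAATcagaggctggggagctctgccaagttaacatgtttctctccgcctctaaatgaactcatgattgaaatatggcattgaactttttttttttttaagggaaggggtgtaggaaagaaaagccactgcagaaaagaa
The windows of *Cavin1* and *Ehd2* overlap annotated exons, so they were searched and are not printed, and *Cavin3* is named only. The GC box (letters GGGCGG) was found once each in *Cav1*, *Cav2*, *Cavin1* and *Ehd2*, and it is present in 32.7% of the 32851 windows of this length. The next motif, named for its letters CCAAT, was found once each in *Cav2*, *Cavin1*, *Cavin2* and *Ehd2*, against 33.8% of all windows. The TATA box (letters TATAAA) stood in *Cav1* alone, on the reverse strand and ending 216 bases before the start (12.4% of all windows). The AP-1 site, whose letters are TGACTCA, stood in *Cav2* alone, against 4.46% of all windows. The E-box, spelled CACGTG and present in 6.02% of all windows, was found in none of the 5. These matches describe letters only, and none of the motifs searched was shared by all 5 windows.

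Libraries held between 5579590 and 18764516 counts, and the members took between 0.335% and 0.885% of the counts of a library. *Lama4* itself, with a lowest, median and highest CPM of 41.8, 91.1 and 193.6 in chow-fed *Lama4* fl/fl mice, 63.0, 113.5 and 132.6 in chow-fed *Lama4* AKO mice, 32.5, 79.8 and 134.4 in HFD-fed *Lama4* fl/fl mice and 37.0, 44.3 and 91.4 in HFD-fed *Lama4* AKO mice, overlapped between genotypes on both diets. Its log2 fold change in *Lama4* AKO against *Lama4* fl/fl mice was 0.13 on chow and -0.70 on HFD, with adjusted p-values of 0.974 and 0.338. By quantitative PCR the study reports lower *Lama4* mRNA in eWAT of chow-fed *Lama4* AKO mice, a fall not seen in these counts. A 3′ read lies outside the deleted exon. Whether loss of that exon changes the level of the remaining transcript was not tested, so these values cannot settle the genotype. Libraries of HFD-fed *Lama4* fl/fl mice stood apart from each other: on the first principal component, which held 45.9% of the variance, replicates 1, 2 and 5 lay at 48.3 to 73.5, near 5 of the 6 HFD-fed *Lama4* AKO libraries (47.1 to 61.4), and replicates 3, 4 and 6 at -76.1 to -9.76. The study removed outlier libraries without naming them in the labels. What it kept was inferred to be close to 19 libraries, which lack chow-fed *Lama4* fl/fl replicate 3, chow-fed *Lama4* AKO replicate 5 and HFD-fed *Lama4* fl/fl replicates 3, 4 and 6, and results that rest on those 5 libraries are given with and without them. On the first principal component the left-out chow-fed libraries were the highest of their groups (46.8 and 22.0). The left-out HFD-fed libraries were the lowest of theirs. The members followed that component (r from -0.935 to -0.633), so this selection is tied to their levels. Results of the 19 libraries are thus not a separate test of diet. All 13 adipocyte and all 12 endothelial markers passed the filter. Of 6 epididymis genes 3 were in the table and none passed it, although their summed level reached 31.5 CPM in 1 chow-fed library.

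*Cav1* ranged from 624.6 to 1483 CPM in chow-fed *Lama4* fl/fl mice, with a median of 895.6. In chow-fed *Lama4* AKO mice it ranged from 531.6 to 2136 CPM (median 1421), where replicates 5 and 6 were the low ones at 531.6 and 671 CPM. HFD-fed *Lama4* fl/fl mice ranged from 399.2 to 1864 CPM (median 720.8), the widest span as a fold (4.67, against 4.02 in chow-fed *Lama4* AKO mice), with replicates 4 and 6 highest. HFD-fed *Lama4* AKO mice lay between 374.9 and 734.9 CPM (median 513.9), so 4 of the 6 were below every chow-fed *Lama4* AKO library. The remaining libraries, replicates 3 and 6 at 538.7 and 734.9 CPM, were above 1 and 2 of the chow-fed *Lama4* AKO libraries.

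*Cav2* ranged from 224.9 to 506 CPM (median 398.3) in chow-fed *Lama4* fl/fl mice, from 200.7 to 592.1 CPM (median 428.4) in chow-fed *Lama4* AKO mice, from 219.7 to 558 CPM (median 385.4) in HFD-fed *Lama4* fl/fl mice and from 187 to 294.5 CPM (median 226.1) in HFD-fed *Lama4* AKO mice. In HFD-fed *Lama4* AKO mice replicates 4 and 5, at 190.1 and 187 CPM, were below every library of the other groups, and the other libraries overlapped them.

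*Cavin1* had the smallest spread of group means of the 6 members on the log2 scale. Its ranges were 1571 to 4106 CPM (median 2139) in chow-fed *Lama4* fl/fl, 1666 to 3863 CPM (median 3126) in chow-fed *Lama4* AKO, 2052 to 4067 CPM (median 2477) in HFD-fed *Lama4* fl/fl and 1970 to 2952 CPM (median 2162) in HFD-fed *Lama4* AKO mice. *Cavin2* ranged from 521.2 to 1750 CPM (median 916.1), 567 to 1529 CPM (median 937.4), 459.4 to 1533 CPM (median 753.7) and 315.3 to 809.5 CPM (median 431.8) in the same order of groups. *Cavin3* ranged from 288 to 440.6 CPM (median 411.8), 264.4 to 752.3 CPM (median 561.2), 145.6 to 820.7 CPM (median 296.7) and 188.8 to 467.3 CPM (median 322.6). For *Cavin3* the HFD-fed *Lama4* fl/fl libraries at 755.9 and 820.7 CPM were the highest of all 24.

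*Ehd2* ranged from 126.9 to 474.3 CPM (median 193.2) in chow-fed *Lama4* fl/fl, 161.6 to 633.9 CPM (median 371) in chow-fed *Lama4* AKO, 192.6 to 456.6 CPM (median 340.7) in HFD-fed *Lama4* fl/fl and 140.3 to 276.5 CPM (median 166.1) in HFD-fed *Lama4* AKO mice. For every member the HFD-fed *Lama4* AKO group had the lowest mean log2 CPM, and its values overlapped those of each other group. On the log2 scale the mean of *Cav1* was 9.84 ± 0.41, 10.22 ± 0.81, 9.70 ± 0.93 and 8.98 ± 0.33 (SD, n = 6) in the order of groups above, and that of *Cavin1* was 11.18 ± 0.47, 11.47 ± 0.49, 11.38 ± 0.39 and 11.14 ± 0.20.

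**Figure D1:**
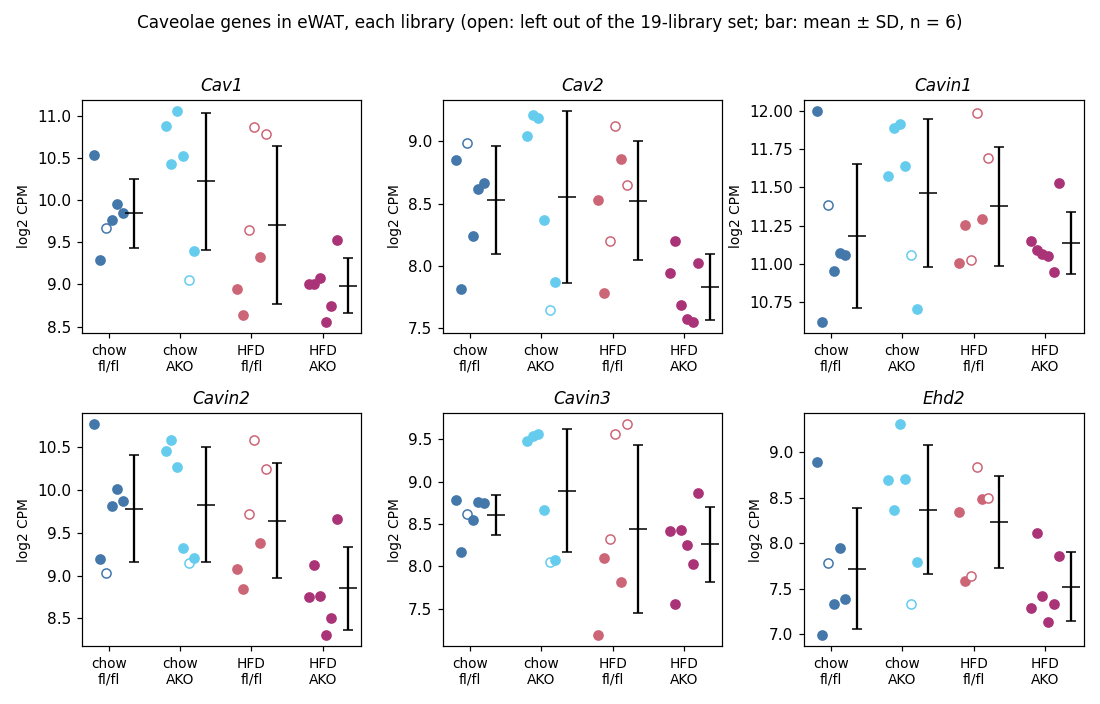
Log2 CPM of each of the 6 caveolae genes in each of the 24 eWAT libraries, by group, with the mean ± SD of 6 mice as a bar and the libraries left out of the 19-library set as open circles. The HFD-fed *Lama4* AKO mice have the lowest mean for every gene, and all groups overlap.

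The first comparison asked how the diet changed these genes in mice that lack adipocyte *Lama4*. In *Lama4* AKO mice all 6 members had lower estimates on HFD than on chow, with a median log2 fold change of -0.89 against -0.003 over all genes tested. The study's criteria asked for a 1.5-fold difference, a nominal p no higher than 0.001 and an average of 2 CPM or more in whichever group was higher. By these, 0 of 6 were called, where 4.28% of all genes were called in either direction. *Cav1* was close to that threshold, with a nominal p of 0.00105. By an adjusted p of at most 0.05 alone, a count added after the data were seen, 4 of 6 were lower (*Cav1*, *Cav2*, *Cavin2* and *Ehd2*), where 13.5% of all genes were lower by the same rule.

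*Cav1*, the principal caveolin of adipocytes, was at 38.6% of its chow level (log2 fold change -1.38 ± 0.37 SE, 95% interval -2.14 to -0.61, edgeR adjusted p = 0.0206). *Cavin2* was at 48.8% (-1.03 ± 0.35, -1.75 to -0.32, adjusted p = 0.0369), *Ehd2* at 52.3% (-0.94 ± 0.32, -1.60 to -0.27, adjusted p = 0.0407) and *Cav2* at 56.1% (-0.83 ± 0.27, -1.39 to -0.28, adjusted p = 0.0323). *Cavin3* had an estimate of -0.72 (-1.46 to 0.01, adjusted p = 0.133), and *Cavin1*, the coat protein needed for caveolae, one of -0.38 (-0.87 to 0.11, adjusted p = 0.233).

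The 4 calls by adjusted p depended on the libraries and the model. Leaving out chow-fed *Lama4* AKO replicate 1 or 3 or HFD-fed *Lama4* AKO replicate 4 left 0 members. The share of all genes passing in either direction was then 6.58%, 3.95% and 5.27%, against 22.5% in the full fit. Leaving out chow-fed *Lama4* AKO replicate 2 or HFD-fed *Lama4* AKO replicate 1, 3 or 5 left 1, where 12.8%, 10.9%, 14.7% and 8.25% of all genes passed. With limma-voom 2 members passed, *Cav1* (adjusted p = 0.0278) and *Cavin2* (0.0411), where 22.3% of all genes did. With the replicate number as a block 1 passed, *Cav1* (0.0334), where 16.5% of all genes did. With the 19 libraries 5 of 6 had an adjusted p of at most 0.05, all but *Cavin1*, where 40.4% of all genes did so in either direction, and *Cav1* was called by the study's criteria (log2 fold change -1.53), as were 15.8% of all genes. Chow-fed *Lama4* AKO replicate 5, absent from the 19, was the lowest of its group for every member but *Cavin1*. The 19-library counts depend on that choice. Leaving out 1 of the 19 at a time kept 5 or 6 members by adjusted p, where 31.1% to 45.2% of all genes passed. It gave 1 to 5 members called, where 10.8% to 20% of all genes were called. There were 5 when chow-fed *Lama4* AKO replicate 6 was dropped (20% of all genes) and 4 when chow-fed *Lama4* fl/fl replicate 1 was (19.2%). There were 3 on dropping *Lama4* AKO replicate 4 or *Lama4* fl/fl replicate 2 of the chow-fed mice, and 2 on dropping HFD-fed *Lama4* AKO replicate 2 or 6 or HFD-fed *Lama4* fl/fl replicate 2 or 5.

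The same comparison in control mice gave 0 of 6 members by the study's criteria (0.186% of all genes were called) and 0 by adjusted p (0% of all genes). These counts are from edgeR with all 24 libraries, where 28 genes were called. The study, with limma and outliers removed, reports far more genes for this comparison. With the 19 libraries edgeR called 1751 genes (11.8%) and 0 of 6 members. With all 24 libraries no member had an unadjusted p under 0.05 with edgeR, limma-voom or DESeq2. With edgeR 9.25% of all genes did. The estimates on HFD against chow were 0.06 for *Cav1* (95% interval -0.68 to 0.81), 0.01 for *Cav2* (-0.54 to 0.56), 0.17 for *Cavin1* (-0.32 to 0.66), -0.12 for *Cavin2* (-0.83 to 0.58), 0.11 for *Cavin3* (-0.63 to 0.84) and 0.44 for *Ehd2* (-0.22 to 1.1), with adjusted p-values of at least 0.687. The intervals of all members but *Cav2* hold differences above 1.5-fold (0.58 on the log2 scale) in at least 1 direction.

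The control values changed without the 5 libraries named above. Of these, HFD-fed *Lama4* fl/fl replicates 3, 4 and 6 had the highest *Cav1* of their group, at 801.4, 1864 and 1765 CPM. The replicates kept, 1, 2 and 5, had 494, 399.2 and 640.2 CPM. Lower *Cav1* on HFD in the 19 libraries thus follows in part from the selection, and its p-value cannot be read as a separate result. With the 19 libraries *Cav1* had an estimate of -0.98 ± 0.33 (adjusted p = 0.0304) and *Cavin3* one of -0.93 ± 0.32 (0.0393) in HFD-fed against chow-fed *Lama4* fl/fl mice, so 2 of 6 members were lower by adjusted p, where 28.9% of all genes passed in either direction. Leaving out 1 of the 19 libraries at a time gave 0 to 3 members, where 13.3% to 32.3% of all genes passed. There were 0 when replicate 1 of either *Lama4* fl/fl group was dropped and 3 when chow-fed *Lama4* fl/fl replicate 2 or HFD-fed *Lama4* AKO replicate 6 was. There was 1 member in the absence of chow-fed *Lama4* fl/fl replicate 4, 5 or 6, HFD-fed *Lama4* fl/fl replicate 2 or 5, or HFD-fed *Lama4* AKO replicate 1, 3, 4 or 5. *Cavin2* had an estimate of -0.95 ± 0.38 (0.0652), and *Cav2*, *Cavin1* and *Ehd2* lay at -0.06, -0.08 and 0.27. Averaged over both genotypes, the diet gave 0 calls among the members with all 24 libraries (2.3% of all genes), with estimates of -0.66 for *Cav1*, -0.58 for *Cavin2*, -0.41 for *Cav2*, -0.31 for *Cavin3*, -0.25 for *Ehd2* and -0.10 for *Cavin1*. With the 19 libraries 3 members were called, *Cav1* (-1.25), *Cavin2* (-1.05) and *Cavin3* (-0.89), where 21.5% of all genes were called, and 4 passed by adjusted p, where 52% of all genes did.

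**Figure D2:**
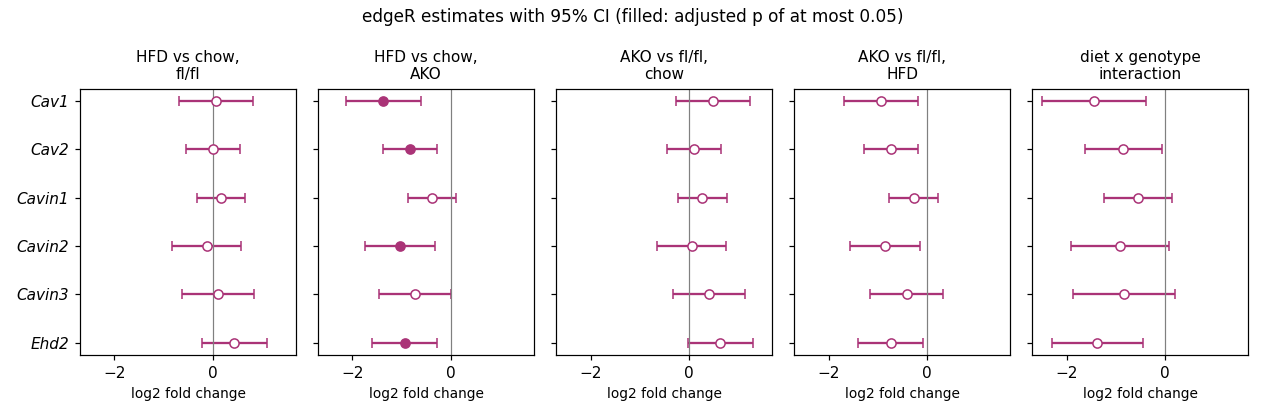
edgeR log2 fold changes with 95% intervals for the 6 members in the comparisons of diet within genotype, of genotype within diet, and in the interaction. Of these 5 comparisons, filled points (adjusted p of at most 0.05) appear in HFD-fed against chow-fed *Lama4* AKO mice alone, for *Cav1*, *Cav2*, *Cavin2* and *Ehd2*.

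The comparison of genotypes asked what the loss of adipocyte *Lama4* did on each diet. On chow, 0 of 6 members were called (0.126% of all genes). None had an unadjusted p under 0.05 with edgeR, where 5.76% of all genes did, and DESeq2 gave 1 such member. edgeR gave 2 with the 19 libraries, *Cav1* (0.61 ± 0.27, adjusted p = 0.571) and *Ehd2* (0.76 ± 0.33, 0.556). The share of all genes by that rule was not counted for DESeq2 or the 19 libraries, so these counts cannot be weighed. By adjusted p 0 of 6 passed with DESeq2 (0.0266% of all genes) or with the 19 libraries (0%). With all 24 libraries the estimates for *Lama4* AKO against *Lama4* fl/fl mice were all above 0, from 0.06 for *Cavin2* to 0.64 for *Ehd2* (95% interval -0.02 to 1.3, adjusted p = 0.869). On HFD, 0 of 6 were called (0.16% of all genes) and 0 passed by adjusted p, with 4 at an unadjusted p under 0.05 in the lower direction, where 10.1% of all genes were. These were *Cav1* (-0.94 ± 0.37, adjusted p = 0.295), *Cavin2* (-0.85 ± 0.34, 0.300), *Cav2* (-0.74 ± 0.27, 0.290) and *Ehd2* (-0.73 ± 0.32, 0.311). *Cavin3* had an estimate of -0.41 ± 0.36 and *Cavin1* one of -0.27 ± 0.24. With the 19 libraries none of the 6 had an unadjusted p under 0.05 on HFD, and none passed by adjusted p (0% of all genes). There *Cav1* stood at 0.06, *Cavin1* at 0.01 and *Cavin3* at 0.62. Averaged over both diets, 0 members were called (0.0333% of all genes), with estimates from -0.40 to 0.003.

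Whether the diet response differed between genotypes was tested by the interaction. All 6 estimates were below 0, and 0 of 6 were called (0.366% of all genes) or passed by adjusted p. At an unadjusted p under 0.05 there were 3, where 9.86% of all genes were lower by that rule: *Cav1* (-1.44 ± 0.51, adjusted p = 0.25), *Ehd2* (-1.37 ± 0.45, 0.237) and *Cav2* (-0.84 ± 0.38, 0.293). *Cavin2*, *Cavin3* and *Cavin1* had estimates of -0.91, -0.83 and -0.55, with 95% intervals that hold 0. A difference in diet response between the genotypes was thus not shown for any member. In the 19-library fit 2 members had an unadjusted p under 0.05, *Ehd2* (-1.34 ± 0.49, adjusted p = 0.26) and *Cav2* (-0.90 ± 0.39, 0.353). The share of all genes by that rule was not counted in that fit, so this count cannot be weighed. In the same fit *Cav1* stood at -0.55 ± 0.41, *Cavin1* at -0.36, *Cavin2* at -0.20 and *Cavin3* at 0.08.

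Markers of some cell types moved in the direction of the members and those of others did not. In bulk tissue fewer cells of a type and less RNA per cell cannot be told apart. In HFD-fed against chow-fed *Lama4* AKO mice, 13 of 13 adipocyte markers had estimates below 0 (median -1.25), 7 of them at an adjusted p of at most 0.05, among them the defining genes *Adipoq* (adiponectin, -1.45, adjusted p = 0.0432) and *Plin1* (perilipin-1, -0.98, 0.0492). Of 12 endothelial markers 11 were below 0 (median -0.70) and 6 passed, among them *Cdh5* (VE-cadherin, -0.99, 0.0265) and *Pecam1* (-0.68, 0.0432). These 4 markers were named after their values were seen. Of 10 macrophage markers 0 were below 0 (median 1.12) and 2 passed. By the same rule 13.5% of all genes were lower and 9.06% higher. Of 8 smooth muscle and pericyte markers 4 were below 0 (median -0.23) and 3 were lower by adjusted p, and their summed level ranged from 282.8 to 1078 CPM in chow-fed and from 230 to 367.7 CPM in HFD-fed *Lama4* AKO mice. Of 6 mesothelial markers 5 were below 0 (median -1.43) and 2 were lower, with summed levels of 26.1 to 143.9 and 9.76 to 50.9 CPM. Of 8 fibroblast and progenitor markers 1 was below 0 (median 0.51) and 1 was higher by adjusted p. Of 4 B cell markers 0 were below 0 (median 1.09), and of 4 T cell markers 2 were (median 0.06), with 0 passing in either list. Of 2 skeletal muscle markers tested 2 were below 0 (median -0.97) and 1 was lower by adjusted p. In the same mice the summed level of the adipocyte markers ranged from 15830 to 44560 CPM in chow-fed and from 9352 to 25770 CPM in HFD-fed *Lama4* AKO mice, that of the endothelial markers from 616.6 to 1392 and from 453.4 to 905.9 CPM, and that of the macrophage markers from 2601 to 12910 and from 9612 to 21270 CPM. In control mice the same lists ran from 21520 to 57190 CPM on chow and 9669 to 50730 CPM on HFD for adipocytes, from 585 to 1224 and 422.8 to 1188 CPM for endothelium, and from 1698 to 15130 and 2866 to 20440 CPM for macrophages. The part of cell makeup in the members' differences was not tested.

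Across the 24 libraries the log2 CPM of the members correlated with the mean of the adipocyte markers at r = 0.949 (*Cav1*), 0.937 (*Cavin2*), 0.848 (*Cavin3*), 0.791 (*Cavin1*), 0.778 (*Cav2*) and 0.730 (*Ehd2*). With the endothelial markers r lay between 0.733 and 0.942, and with the macrophage markers between -0.902 and -0.701. After the group means were subtracted, r with the adipocyte markers was 0.935 for *Cav1* and 0.691 for *Cav2*, the highest and the lowest of the 6. These points share libraries and their scaling, and 1 principal component of all genes tracked the members too (r from -0.935 for *Cav1* to -0.633 for *Cav2*).

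With the mean of the adipocyte markers as a covariate, the estimates for HFD against chow in *Lama4* AKO mice were -0.27 ± 0.17 for *Cav1*, -0.24 ± 0.25 for *Cav2*, -0.20 ± 0.27 for *Ehd2*, -0.10 ± 0.18 for *Cavin2*, 0.19 ± 0.16 for *Cavin1* and 0.31 ± 0.22 for *Cavin3*. With the endothelial markers they lay between -0.20 and 0.31. In both fits 0 of 6 members passed by adjusted p (0% of all genes passed in either), against 4 without a covariate (22.5% of all genes). Each covariate is itself RNA that was lower on HFD in these mice. These fits thus cannot separate cell makeup from RNA per cell, and no conclusion on either is drawn.

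**Figure D3:**
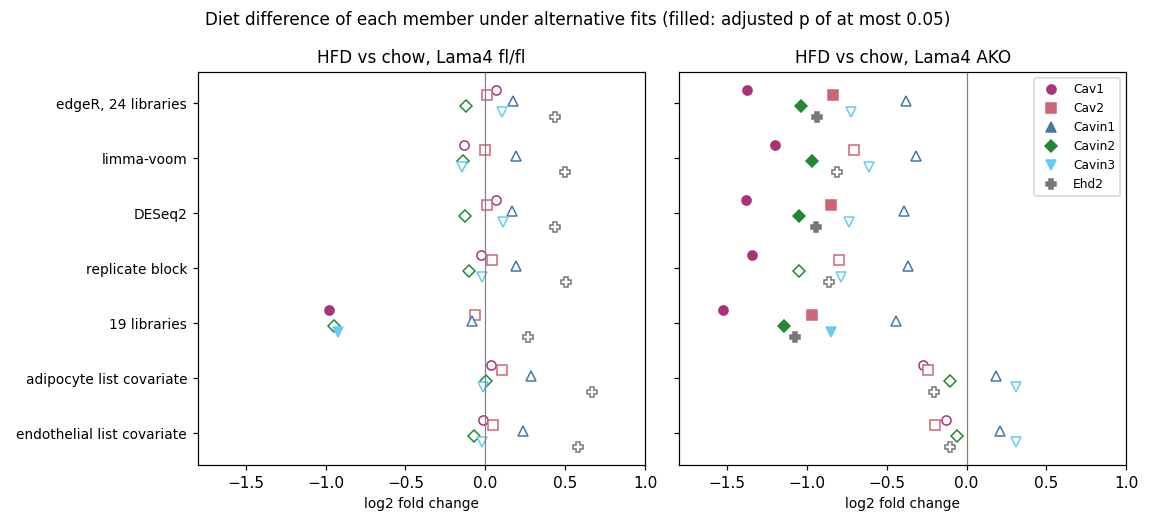
Log2 fold change of each member for HFD against chow in *Lama4* fl/fl (left) and *Lama4* AKO mice (right) in the 24-library edgeR fit and 6 alternatives, filled where the adjusted p is at most 0.05. In *Lama4* AKO mice every fit without a marker covariate places all 6 genes below 0, and with either covariate *Cavin1* and *Cavin3* lie above 0.

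**Figure D4:**
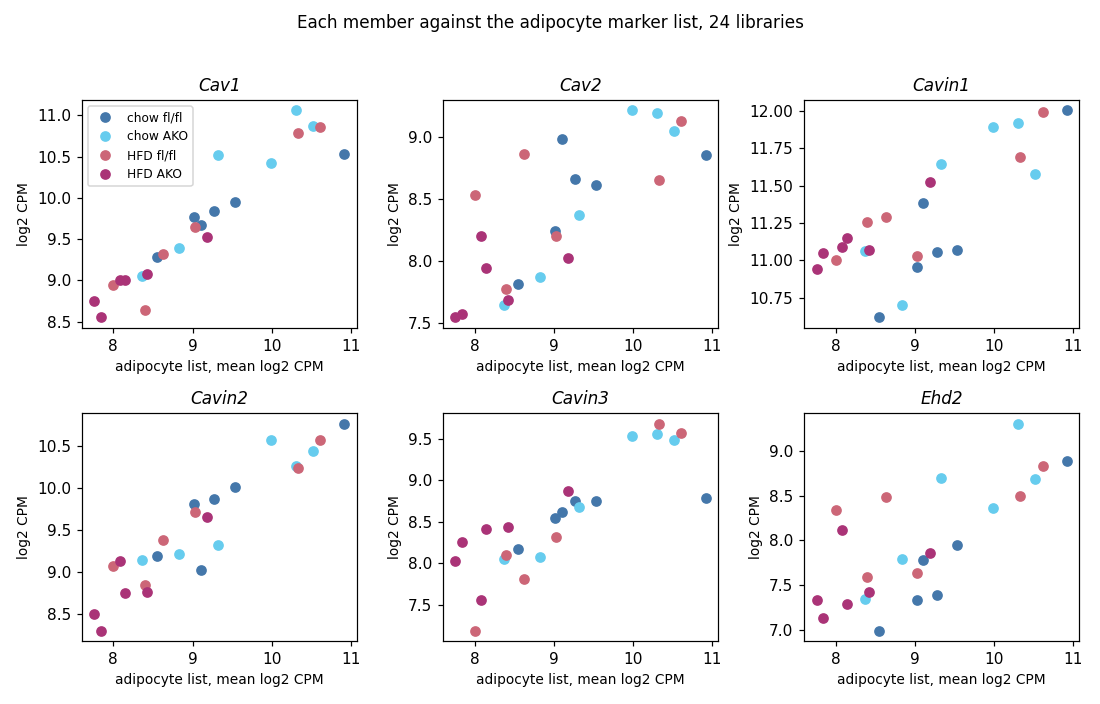
Log2 CPM of each member against the mean log2 CPM of 13 adipocyte markers in the same library, 24 libraries in 4 colours by group. *Cav1* and *Cavin2* lie closest to a line (r = 0.949 and 0.937), and 5 of the 6 HFD-fed *Lama4* AKO libraries lie below 8.5 on the marker axis, together with 2 HFD-fed *Lama4* fl/fl libraries and 1 chow-fed *Lama4* AKO library.

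Differences between members within a library also varied by group. For 1 pair, log2 *Cav1* minus log2 *Cavin1* averaged -1.34 ± 0.22 (SD, n = 6) in chow-fed *Lama4* fl/fl, -1.24 ± 0.47 in chow-fed *Lama4* AKO, -1.68 ± 0.65 in HFD-fed *Lama4* fl/fl and -2.15 ± 0.19 in HFD-fed *Lama4* AKO mice. The last group ranged from -2.50 to -1.99 and the chow-fed *Lama4* AKO group from -2.0 to -0.70, so they overlapped at their ends. *Cavin2* relative to *Cavin1* was also lowest in the last group, with means from -1.40 ± 0.48 in chow-fed *Lama4* fl/fl to -2.29 ± 0.33 in HFD-fed *Lama4* AKO mice. *Cavin3* relative to *Cavin1* was lowest in HFD-fed *Lama4* fl/fl mice (-2.93 ± 0.68) and stood at -2.88 ± 0.33 in HFD-fed *Lama4* AKO mice. *Cav1* relative to *Cavin2* varied less, with group means between 0.06 and 0.39. These differences within a library were chosen after the values were seen and are given without a test.

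Pairs of members correlated at r between 0.483 and 0.888 (15 pairs, median 0.763) over the 24 libraries, and between 0.445 and 0.859 after the group means were subtracted. *Cav1* and *Cavin2* were the closest pair (0.888), and *Cavin3* and *Ehd2* the least alike (0.483). No member was among the 5 genes most like another member. The gene most like *Cav1* was *Npr3* (r = 0.986), followed by *Tshr* (0.985) and *Ghr* (0.983), while *Cavin2* ranked 406 among 15019 genes by likeness to *Cav1*. The neighbour *Cav2* ranked 1165 in that order. The gene most like *Cav2* was *Myl1* (0.948), like *Cavin1* *Atp9a* (0.946), like *Cavin2* *Fsd2* (0.973), like *Cavin3* *Zfyve21* (0.944) and like *Ehd2* *Ppip5k1* (0.96).

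Other proteins of caveolae were taken as a list. Of 12 genes for caveolin-3, cavin-4, pacsins, other EHD ATPases, dynamins and filamin A, 10 passed the filter on low values, and their median log2 fold change in HFD-fed against chow-fed *Lama4* AKO mice was 0.23. By adjusted p 1 was lower and 1 higher, near the shares of all genes (13.5% lower and 9.06% higher). *Ehd3*, an endosomal relative of EHD2, was lower (-1.72 ± 0.51, adjusted p = 0.0253), and *Pacsin2*, a membrane-curving protein of caveolae, was higher (0.47 ± 0.14, 0.0242). *Ehd1*, *Ehd4* and *Dnm2* had estimates of -0.08, 0.27 and 0.21.

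Of 7 genes for proteins that reside in or signal from caveolae, 3 were lower by adjusted p in the same comparison and 0 higher (median -0.55). Of all genes 13.5% were lower and 9.06% higher by that rule. These were *Aoc3*, an amine oxidase of the adipocyte surface (-1.40 ± 0.46, adjusted p = 0.0345), *Nos3*, the endothelial nitric oxide synthase (-1.21 ± 0.38, 0.0301), and *Slc2a4*, the insulin-responsive glucose transporter GLUT4 (-1.10 ± 0.40, 0.0482), which is also on the adipocyte list. The insulin receptor gene *Insr* had an estimate of -0.55 (0.0703), and *Cd36*, the fatty acid translocase, one of 0.03 (0.914).

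Genes of other membrane domains and pits were also taken as a list. Of 10 flotillin, clathrin and AP-2 genes, 1 was lower and 1 higher by adjusted p in *Lama4* AKO mice on HFD against chow (median 0.18), again near the shares of all genes. The clathrin heavy chain gene *Cltc* was higher (0.87 ± 0.25, adjusted p = 0.0242), and the adaptor subunit gene *Ap2b1* was lower (-0.89 ± 0.22, 0.0168) and was called by the study's criteria. *Flot1* and *Flot2*, which encode the flotillins, had estimates of -0.13 and 0.13. In control mice 0 genes of these 3 lists passed by adjusted p with edgeR, where 0% of all genes did.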

How the data were processed

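The count table holds the raw gene counts as deposited by the authors, made with the Lexogen QuantSeq pipeline and Rsubread on GRCm38/mm10, without normalization. A second deposited table holds signal values, the same counts divided by 1 DESeq2 size factor per library by the authors, and served only for gene symbols. The submitters' processing notes name R 4.0.3 and DESeq2 1.30.

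Counts were scaled by TMM and tested with edgeR 4.0.16 (quasi-likelihood, R 4.3.3), with 1 coefficient per group over all 24 libraries. Genes with at least 1 CPM in 3 libraries were kept (15020 of 16730), and p-values were adjusted by Benjamini-Hochberg over all of them. Log2 CPM used a prior count of 2. edgeR, limma 3.58.1 (voom) and DESeq2 1.42.0 were run on simulated data for HFD against chow in *Lama4* AKO mice. By adjusted p edgeR recovered 8.96% of simulated 1.5-fold changes, 59.7% of 2-fold and 93.9% of 4-fold changes. Genes were drawn independently, so the simulation lacks the variation that genes share across the real libraries. There were 7 comparisons and 11 fits besides those that leave out a library, with 2 call rules and 2 library sets. The members, gene lists and tests were chosen with earlier results of these data known. Named genes were the members, *Lama4*, genes of 3 caveolar and membrane lists and the 5 genes most correlated with each member. From the cell type lists *Adipoq*, *Plin1*, *Cdh5* and *Pecam1* were also named, after their values were seen. Replicate numbers shared between groups were not treated as pairs in the main fit, and whether they mark pairs is not settled. Each library was 1 mouse, and totals from 5579590 to 18764516 counts set the counting precision.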

Additional observations from a re-analysis of the deposited data

Results flagged for a closer look

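In 1 of 24 sets of 6 values (each member in each group), 1 library lay far from the rest. *Cavin1* in HFD-fed *Lama4* AKO replicate 6 was the highest of 6, at a log2 CPM of 11.527, and its gap to the next library was 0.643 of the range of the group, above the critical value of 0.625. Chance alone gives such a gap in about 1 in 20 sets.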

How the results depend on the processing

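By the study's criteria, the diet in *Lama4* AKO mice gave 1 member with the 19 libraries (15.8% of all genes) and with DESeq2 (8.75%), against 0 (4.28%). It also gave 1 with only the groups compared (9.57%) and with the 19 libraries and limma-voom (15.9%). An adjusted p of at most 0.05 in place of the criteria gave 4 (22.5%). By adjusted p the same comparison gave 2 with limma-voom (22.3%), 1 with the replicate block (16.5%) and 0 with the adipocyte or endothelial covariate (0%), against 4. The diet in *Lama4* fl/fl mice gave 2 by adjusted p with the 19 libraries (28.9%), also with limma-voom (30.8%). Averaged over genotypes the diet gave 3 by the criteria and 4 by adjusted p with the 19 libraries, with either tool. The shares of all genes with edgeR were 21.5% and 52%. With DESeq2 the averaged diet gave 1 by adjusted p, at 0.049, against 0 with edgeR, where 13.3% of all genes passed. The share of all genes with DESeq2 is not given here, so this count is not read as a gain. The cause of these changes was not tested. Of 402 estimates of the members under alternatives other than leaving out a library, 336 kept their direction and their side of the threshold, 10 passed it and 56 changed sign. With the 19 libraries, estimates on the other side of 0 were, for the diet in *Lama4* fl/fl mice, *Cav1* -0.98, *Cav2* -0.064, *Cavin1* -0.081 and *Cavin3* -0.925, for genotype on HFD, *Cav1* 0.06, *Cavin1* 0.006 and *Cavin3* 0.618, for the interaction, *Cavin3* 0.077, and for genotype averaged over diets, *Cav1* 0.334 and *Ehd2* 0.087. With the 19 libraries and limma-voom, estimates on the other side of 0 were, for the diet in *Lama4* fl/fl mice, *Cav1* -0.963, *Cav2* -0.099, *Cavin1* -0.018 and *Cavin3* -0.95, for genotype on HFD, *Cav1* 0.055 and *Cavin3* 0.602, for the interaction, *Cavin3* 0.149, and for genotype averaged over diets, *Cav1* 0.304 and *Ehd2* 0.129. With DESeq2, estimates at or on the other side of 0 were, for genotype averaged over diets, *Cavin1* 0 (rounded) and *Cavin3* -0.003. With RLE size factors, estimates on the other side of 0 were, for genotype averaged over diets, *Cavin3* -0.002. With the adipocyte covariate, estimates on the other side of 0 were, for the diet in *Lama4* fl/fl mice, *Cavin2* 0.003 and *Cavin3* -0.017, for the diet in *Lama4* AKO mice, *Cavin1* 0.186 and *Cavin3* 0.309, for genotype on chow, *Cav2* -0.026 and *Cavin2* -0.057, for genotype on HFD, *Cavin1* 0.131 and *Cavin3* 0.471, for the interaction, *Cavin3* 0.326, for the diet averaged over genotypes, *Cavin1* 0.237, *Cavin3* 0.146 and *Ehd2* 0.235, and for genotype averaged over diets, *Cav1* 0.122 and *Ehd2* 0.155. With the endothelial covariate, estimates on the other side of 0 were, for the diet in *Lama4* fl/fl mice, *Cav1* -0.017 and *Cavin3* -0.023, for the diet in *Lama4* AKO mice, *Cavin1* 0.212 and *Cavin3* 0.311, for genotype on chow, *Cav1* -0.058, *Cav2* -0.185, *Cavin2* -0.3 and *Cavin3* -0.078, for genotype on HFD, *Cavin1* 0.036 and *Cavin3* 0.255, for the interaction, *Cavin2* 0.011 and *Cavin3* 0.333, and for the diet averaged over genotypes, *Cavin1* 0.223, *Cavin3* 0.144 and *Ehd2* 0.238. With limma-voom, estimates on the other side of 0 were, for the diet in *Lama4* fl/fl mice, *Cav1* -0.135, *Cav2* -0.003 and *Cavin3* -0.146. With the replicate number as a block, estimates on the other side of 0 were, for the diet in *Lama4* fl/fl mice, *Cav1* -0.028 and *Cavin3* -0.019. Leaving out 1 library at a time, 949 of 1008 estimates kept both. For the diet in *Lama4* AKO mice the members at adjusted p ran from 0 to 4, where 3.95% to 30.5% of all genes passed. Those called ran from 0 to 2, where 1.98% to 7.74% of all genes were called. For the diet averaged over genotypes those at adjusted p ran from 0 to 2 (2.94% to 25.4% of all genes). For the interaction those called ran from 0 to 1 (0.193% to 1.27% of all genes). Estimates that changed sign ran, for the diet in *Lama4* fl/fl mice, from -0.23 to 0.226 (*Cav1*), -0.147 to 0.12 (*Cav2*), -0.379 to 0.127 (*Cavin2*) and -0.21 to 0.273 (*Cavin3*). On chow the genotype estimates ran from -0.032 to 0.247 (*Cav2*) and -0.113 to 0.319 (*Cavin2*). Averaged over genotypes, the diet gave -0.184 to 0 (*Cavin1*), and averaged over diets the genotype gave -0.041 to 0.117 (*Cavin1*), -0.082 to 0.16 (*Cavin3*) and -0.158 to 0.125 (*Ehd2*). Same-numbered libraries of different groups correlated at -0.534 to 0.714 after the group means were subtracted. Of 6 chow-fed *Lama4* fl/fl libraries, 3 correlated best with the same-numbered chow-fed *Lama4* AKO library. In the other pairs of groups 0 or 1 of 6 did so. These values cannot settle whether the numbers mark pairs, and the main fit did not treat them as pairs.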
